A study of Mus musculus with 4 samples.

Results

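Tropomyosins, calponins, transgelins and caldesmon are proteins that lie on actin filaments and govern how myosin and other actin-binding proteins reach them. They were followed as 10 genes, Tpm1, Tpm2, Tpm3, Tpm4, Cnn1, Cnn2, Cnn3, Tagln, Tagln2 and Cald1, chosen by symbol. All 27 probe sets that the platform annotation gives to these symbols were taken, of 22690 on the array, and the 10 genes stand among 12393 named genes. The cells were primary mouse embryonic fibroblasts from e14.5 embryos, and each group had 1 Affymetrix expression array. The groups were tri-CH1 cells at 0.1% oxygen (hypoxia), tri-CH1 cells at 21% oxygen (normoxia), wild-type cells at 0.1% oxygen and wild-type cells at 21% oxygen, each kept for 6 h at 37 °C with 5% carbon dioxide in medium with 10% serum that had been brought to the same oxygen level beforehand. The tri-CH1 genotype carries deletions of the CH1 domain, a protein-binding module of the coactivators p300 and CBP, on both p300 alleles and on 1 CBP allele. The design asks what hypoxia changed, what the genotype changed, and whether the hypoxia change differed by genotype. How many embryos or cultures stand behind an array is not given in the labels.

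Tropomyosins are coiled-coil dimers laid end to end along the actin filament, and the 4 genes give many isoforms through alternative promoters and exons. Calponins and caldesmon bind actin and damp the myosin ATPase. Transgelins are small calponin-related proteins that bundle actin. In fibroblasts these proteins belong to stress fibres. Tagln, Cnn1, and the long forms of Cald1 and Tpm are standard marks of smooth muscle and of myofibroblasts, and several of the genes are textbook targets of serum response factor (SRF), which works with actin-sensing cofactors.

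The values are signal intensities, 1 per probe set, that the authors scaled to a target of 500. With 1 array per group there was no replicate error and no test, and the number of arrays limits the precision. A gene is given by its brightest probe set, by mean over the arrays, unless another is named. Before ratios were taken, 200 replaced any signal below it. A gene counted if either array of a comparison reached 500, and higher or lower means at least 2-fold. Each of the 10 genes counted in every comparison. The only internal gauge was the difference in log2 ratio between the 2 brightest probe sets of a gene that counted. Its SD, divided by the square root of 2 to refer to 1 probe set, is called the SD between probe sets. It was between 0.24 and 0.32 in the 4 comparisons, over 1339 to 1367 genes. As probe sets share the RNA and the arrays, it holds no variation between cultures or arrays. The arrays differed in brightness before scaling, with scale factors of 8.70 for tri-CH1 in hypoxia, 10.3 for tri-CH1 in normoxia, 6.73 for wild type in hypoxia and 3.46 for wild type in normoxia. The array of wild-type cells in normoxia had its own lot number and the other 3 arrays shared one, so the genotype comparison in hypoxia lies within 1 lot. The 3' to 5' ratio of the Actb control probe sets ran from 1.23 to 1.43. The hypoxia label was borne out by 3 oxygen-response genes, all higher in hypoxia in both genotypes. The glucose transporter Slc2a1 was 6.19-fold higher in hypoxia in tri-CH1 cells and 6.19-fold higher in wild-type cells. Bnip3 was 21.1-fold higher in tri-CH1 cells and 26.2-fold in wild-type cells, and Ndrg1 10.3-fold in tri-CH1 cells and 16.5-fold in wild-type cells.

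The cells carried the marks of fibroblasts. All 8 fibroblast markers reached 500 on at least 1 array, with Col1a2 between 25093 and 35445 and Vim between 32666 and 38903 over the 4 arrays. Other lists were dim in part. All 5 cardiac markers stayed under 200 on every array, as did Pecam1, Cdh5, Tek and Tie1 of the endothelium, Epcam and Cdh1 of epithelium, and Myod1, Myog, Myh3, Myh8 and Tnnt3 of skeletal muscle. The endothelial marker Kdr ran from 302.2 to 390.5. Of the blood list Ptprc and Hba-a1 stayed under 200 and Cd68 ran from 178.3 to 213.5. Csf1r of that list passed 500 on every array, from 624.6 to 701.2. Of the epithelial list 3 of 5 reached 500, Krt8 and Krt18 at most at 501.8 and 588.3. The keratin Krt19 had 2676 in hypoxia and 423.2 in normoxia in tri-CH1 cells, 6.32-fold higher, and 3881 in hypoxia and 144.7 in normoxia in wild-type cells, at least 19.4-fold higher. Krt8 was at least 2.51-fold lower in hypoxia in tri-CH1 cells, and the PDGF receptor Pdgfrb of the fibroblast list 2.58-fold lower in hypoxia in wild-type cells. Of the smooth muscle list 4 of 8 reached 500, namely Acta2, from 23246 to 34094, Actg2 and the members Tagln and Cnn1.

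Between genotypes, most members were dimmer in tri-CH1 cells at either oxygen level. For 7 of the 10 genes, Tpm1, Cnn1, Cnn2, Cnn3, Tagln, Tagln2 and Cald1, both tri-CH1 arrays lay below both wild-type arrays, against 21.0% of the 4645 genes that reached 500 on any array. For Tpm3 and Tpm4 both tri-CH1 arrays lay above both wild-type arrays, against 26.8% of those genes, and for Tpm2 the genotypes overlapped. The pairs of arrays of a genotype differ in oxygen and are not replicates. The median log2 difference of the 10 genes, tri-CH1 over wild type, was -0.34 in normoxia, against 0.032 over the 4333 genes that counted, and -0.40 in hypoxia, against 0.050 over 4233. Among genes with a mean signal of 4000 or more, which hold 9 of the members, the median over all genes was -0.029 in normoxia and -0.021 in hypoxia. By size only Cnn1 passed 2-fold, in normoxia, where 3.48% of genes were lower by 2-fold and 3.16% higher. None of the 10 passed 2-fold in hypoxia, where these shares were 3.31% and 3.76%. At 1.5-fold, Cnn1 and Cnn3 were lower in normoxia, against 9.51% of genes, and Cnn1 and Tpm1 in hypoxia, against 8.88%. When each array was scaled to the same median of all named genes, the lower genes in normoxia became 273 and the higher 76, in place of 151 and 137, and in hypoxia 184 and 128, in place of 140 and 159. The median of all genes then lay at -0.23 in normoxia and -0.071 in hypoxia, and the median of the members at -0.58 and -0.51. As these are bulk samples, fewer cells of a type and less RNA per cell cannot be told apart.

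**Figure D1:**
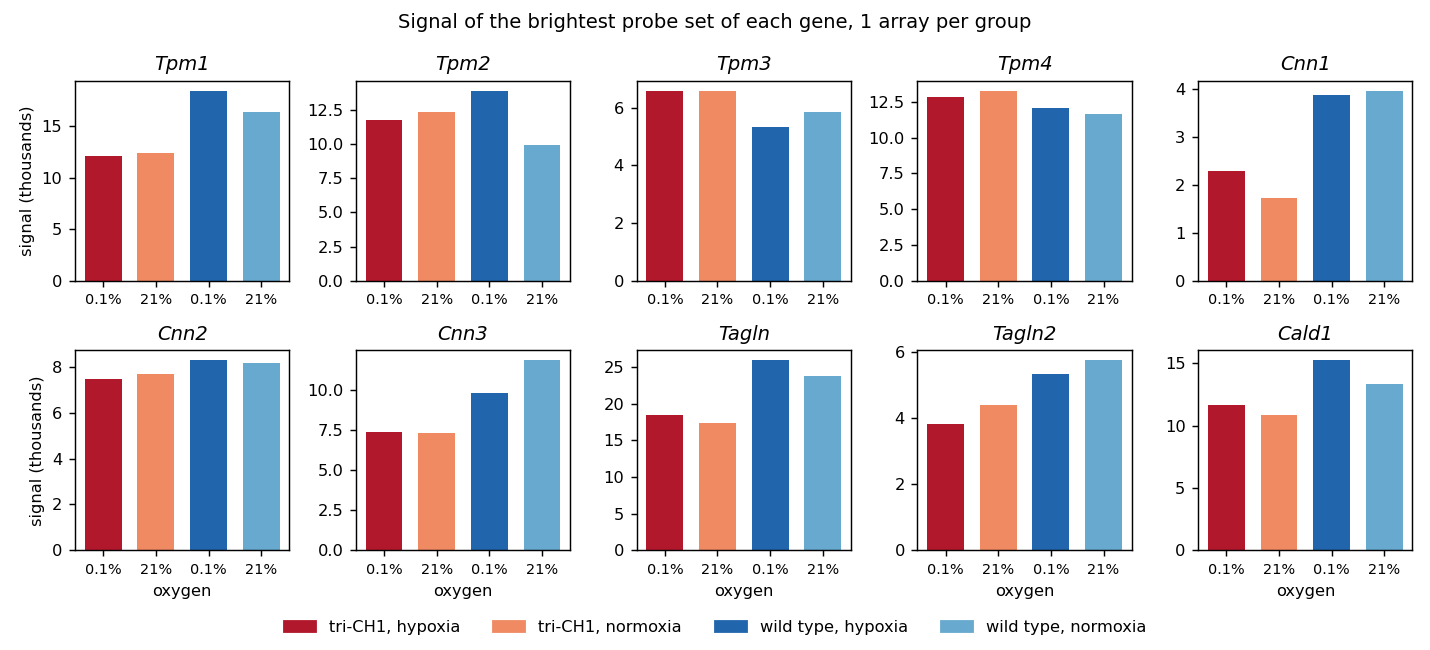
Signal divided by 1000 (y axis, linear, from 0) of the brightest probe set of each gene on the 4 arrays (x axis, oxygen level), with 1 bar per array. Both tri-CH1 bars (red and orange) stand below both wild-type bars (blue) for 7 genes, most clearly for Cnn1, and above them for Tpm3 and Tpm4.

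The calponins differed among themselves. Cnn1, the basic calponin of smooth muscle (GRCm38.p6 chr9:22099221-22109221), had a signal of 1741 in tri-CH1 cells and 3977 in wild-type cells in normoxia, and of 2299 in tri-CH1 cells and 3881 in wild-type cells in hypoxia. It was therefore 2.28-fold lower in tri-CH1 cells in normoxia, a log2 difference of -1.19, with a log2 difference of -0.76 in hypoxia. Both wild-type arrays, which differ in oxygen and in lot, lay close together and both tri-CH1 arrays lay well under them. The normoxia comparison is between lots, and the hypoxia comparison, within a lot, was 1.69-fold. Cnn1 has a single probe set, so no second reading of it exists. Cnn3, the acidic calponin found in many non-muscle cells (chr3:121426541-121458205), had 7265 in tri-CH1 cells and 11841 in wild-type cells in normoxia, and 7348 in tri-CH1 cells and 9793 in wild-type cells in hypoxia, which gives log2 differences of -0.70 and -0.41. Its 5 probe sets at 500 or more all pointed the same way, from -0.93 to -0.51 in normoxia and from -0.94 to -0.41 in hypoxia. All but 1426724_at carry the suffix _x_at, which marks probes that may also bind other transcripts; 1426724_at itself gave -0.71 in normoxia and -0.59 in hypoxia. Cnn2, the neutral calponin of non-muscle cells (chr10:79988600-79995400), was nearly level, with 7710 in tri-CH1 cells and 8170 in wild-type cells in normoxia and 7496 in tri-CH1 cells and 8322 in wild-type cells in hypoxia. Its log2 differences of -0.08 and -0.15 are smaller than the SD between probe sets of a gene, and with quantile normalization its normoxia value was 0.0025.

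Cnn1 and Cnn2, the calponins at the ends of this range, are shown with the bases just before their annotated starts, from RefSeq on GRCm38.p6, plus strand, in lower case, with a match to the CArG box (the SRF motif) in capitals. The Cnn1 stretch holds no such match.
Cnn1, chr9:22099003-22099220: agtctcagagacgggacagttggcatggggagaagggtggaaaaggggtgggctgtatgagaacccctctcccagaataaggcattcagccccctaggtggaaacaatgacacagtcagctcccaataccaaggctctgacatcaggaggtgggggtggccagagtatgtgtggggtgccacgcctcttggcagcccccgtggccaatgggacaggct
Cnn2, chr10:79988350-79988599: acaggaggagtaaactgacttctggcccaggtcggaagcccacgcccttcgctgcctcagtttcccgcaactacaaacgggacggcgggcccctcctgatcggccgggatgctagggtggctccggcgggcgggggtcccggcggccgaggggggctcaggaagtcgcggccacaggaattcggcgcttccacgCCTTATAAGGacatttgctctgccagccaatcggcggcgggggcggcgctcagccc
Promoter windows, from 250 bases before to 50 after a transcript's start, were matched for 9 of the 10 genes, all but Tagln, as 11 windows. Of these, 1 held a strict CArG box, that of Cnn2, 56 bases before the start, against 1.63% of all 32851 windows. The MCAT motif, the site of TEAD factors (CATTCC or its reverse complement GGAATG), was in windows of Tpm1, Tagln2 and Cald1, against 14.7% of all windows. The core ACGTG of the hypoxia response element (or CACGT on the other strand) was in 1 window, that of Cnn1, starting 5 bases into the transcript, against 19.6%. No matches overlapped. A match is a description of letters, and windows without one say nothing of factors that bind elsewhere or to looser forms.

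The transgelins were both dimmer in tri-CH1 cells. Tagln, the smooth muscle protein SM22 alpha (chr9:45929628-45936058), had 17312 in tri-CH1 cells and 23792 in wild-type cells in normoxia, and 18498 in tri-CH1 cells and 25988 in wild-type cells in hypoxia. The log2 differences of -0.46 and -0.49 were nearly equal at the oxygen levels, from pairs that share no array, and both exceed the SD between probe sets. Tagln2, the transgelin of non-muscle and blood cells (chr1:172500246-172507375), had 4400 in tri-CH1 cells and 5765 in wild-type cells in normoxia and 3826 in tri-CH1 cells and 5334 in wild-type cells in hypoxia, with log2 differences of -0.39 and -0.48. Its dimmer probe set 1439407_x_at read 846.5 in tri-CH1 cells and 2022 in wild-type cells in normoxia but 1460 in tri-CH1 cells and 1618 in wild-type cells in hypoxia. That is 2.39-fold lower in normoxia and a log2 difference of -0.15 in hypoxia, so the probe sets agree on the sign and differ in size.

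Cald1 encodes caldesmon, which links actin and myosin (chr6:34598495-34775469). It had 10874 in tri-CH1 cells and 13344 in wild-type cells in normoxia, and 11667 in tri-CH1 cells and 15285 in wild-type cells in hypoxia, for log2 differences of -0.30 and -0.39. The first difference is within the SD between probe sets and the second exceeds it. The 3 probe sets of Cald1 all read lower signals on both tri-CH1 arrays than on both wild-type arrays. The difference was larger on 1424768_at, at -0.83 in normoxia and -0.60 in hypoxia, with 6999 in tri-CH1 cells against 12436 in wild-type cells in normoxia and 8072 in tri-CH1 cells against 12275 in wild-type cells in hypoxia.

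The tropomyosins did not move as a block. Tpm1, whose products include both long muscle-type and short cytoplasmic forms (chr9:67022590-67049672), had 12365 in tri-CH1 cells and 16330 in wild-type cells in normoxia, and 12155 in tri-CH1 cells and 18459 in wild-type cells in hypoxia. The log2 differences were -0.40 and -0.60, and the next probe set, 1423721_at, gave -0.49 and -0.43. Tpm4, which encodes short forms in non-muscle cells (chr8:72135288-72153142), had 13288 in tri-CH1 cells and 11654 in wild-type cells in normoxia, and 12846 in tri-CH1 cells and 12101 in wild-type cells in hypoxia. Its log2 differences of 0.19 and 0.09 were within the SD between probe sets and turned to -0.05 and -0.02 when the arrays were scaled to the same median, a scaling that also moved all genes down.

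Tpm3, which gives slow skeletal muscle and widespread cytoplasmic forms (chr3:90072651-90100902), had 6598 in tri-CH1 cells and 5857 in wild-type cells in normoxia, and 6590 in tri-CH1 cells and 5342 in wild-type cells in hypoxia. The log2 differences of 0.17 and 0.30 did not exceed the SD between probe sets, and the first became -0.07 with median scaling. The other bright probe sets of Tpm3 lay between -0.19 and 0.02 in these comparisons, so the higher reading rests on 1427260_a_at, and 2 further probe sets stayed under 200 on every array. Tpm2, the beta-tropomyosin of muscle (chr4:43513726-43523583), had 12344 in tri-CH1 cells and 9964 in wild-type cells in normoxia, but 11795 in tri-CH1 cells and 13927 in wild-type cells in hypoxia. The sign thus changed with oxygen on this probe set, with log2 differences of 0.31 and -0.24, both within the SD between probe sets. The dimmer 1425028_a_at gave -0.06 and -0.21 and 1449577_x_at gave -0.42 and -0.56, so in hypoxia all 3 bright probe sets had a negative value and in normoxia the probe sets disagreed.

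**Figure D2:**
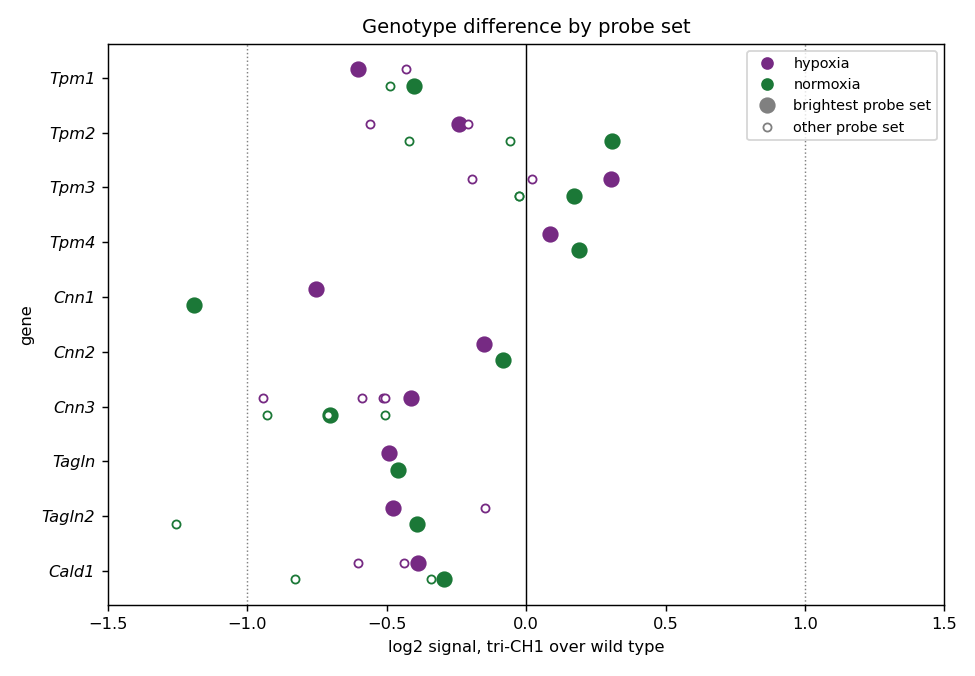
Log2 signal of tri-CH1 over wild type (x axis) for the 22 member probe sets at 500 or more on any array, by gene (y axis), in hypoxia (purple) and normoxia (green), with the brightest probe set of each gene as a large filled point and dotted lines at 2-fold. In each comparison 19 of the 22 probe sets lie left of 0, and points to the right belong to Tpm2, Tpm3 and Tpm4. Over all genes that counted, not drawn, 46.5% were below 0 in normoxia and 44.9% in hypoxia.

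Over all 27 probe sets, 22 reached 500 on at least 1 array. In 16 of these both tri-CH1 arrays lay below both wild-type arrays, in 2 above, and in 4 the genotypes overlapped. Over all bright genes, by their brightest probe set, the shares below and above were 21.0% and 26.8%. Probe sets of a gene share its RNA and are not independent. The 5 dimmer probe sets belong to Tpm1, Tpm2, Tpm3 and Cnn3.

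**Figure D3:**
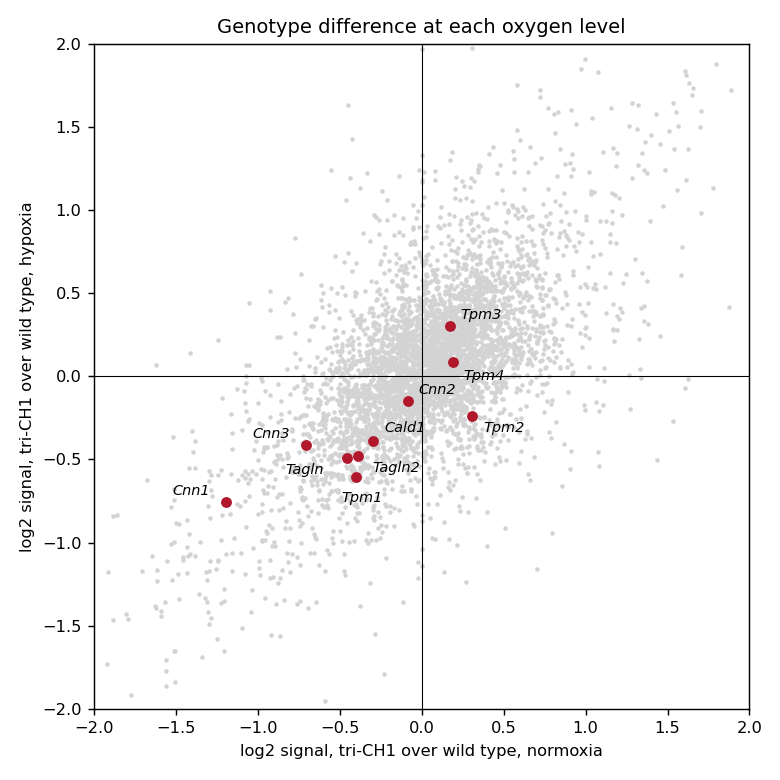
Log2 signal of tri-CH1 over wild type in normoxia (x axis) and hypoxia (y axis) for the 4645 genes at 500 or more on any array (grey points, 60 of which lie outside the axes) and the 10 members (red). Of the members, 7 lie at the lower left, Tpm3 and Tpm4 in the upper right, and Tpm2 in the lower right.

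Few genes passed 2-fold with oxygen in either genotype, so the lack of members past it says little of the members. None of the 10 passed 2-fold with hypoxia in tri-CH1 cells, where 3.19% of 4358 genes were higher and 0.987% lower, and none in wild-type cells, where 3.05% of 4125 genes were higher and 1.19% lower. None of the 22 bright probe sets passed 2-fold either. The median log2 change of the members was -0.013 in tri-CH1 cells, against -0.039 over all genes that counted, and 0.040 in wild-type cells, against -0.057. For no member did both hypoxia arrays lie below, or both above, both normoxia arrays. Of all bright genes, 22.5% lay below and 15.5% above in this way. A gene whose arrays are separated by genotype cannot also be separated by oxygen. Genotype already separated 7 members below and 2 above, so only Tpm2 could have been separated by oxygen. This order therefore cannot show how much oxygen changed the members.

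The largest oxygen change of a bright member probe set was that of 1439407_x_at of Tagln2 in tri-CH1 cells. It read 1460 in hypoxia and 846.5 in normoxia, a log2 change of 0.79, while the brightest probe set of Tagln2 gave -0.20. In wild-type cells these probe sets gave -0.32 and -0.11. In tri-CH1 cells Cnn1 had 2299 in hypoxia and 1741 in normoxia, a log2 change of 0.40, and in wild-type cells 3881 in hypoxia and 3977 in normoxia, a change of -0.04. In tri-CH1 cells Tpm2 had 11795 in hypoxia and 12344 in normoxia, a change of -0.07, and in wild-type cells 13927 in hypoxia and 9964 in normoxia, a change of 0.48. Its probe set 1449577_x_at had changes of 0.53 in tri-CH1 cells and 0.68 in wild-type cells. Both hypoxia arrays lay above both normoxia arrays on 1449577_x_at, at 1310 in hypoxia against 904.8 in normoxia in tri-CH1 cells and 1934 in hypoxia against 1210 in normoxia in wild-type cells. The wild-type Cnn3 changes ran from -0.57 to -0.05 over its bright probe sets, and those in tri-CH1 cells from -0.36 to 0.02. Tagln had 18498 in hypoxia and 17312 in normoxia in tri-CH1 cells, and 25988 in hypoxia and 23792 in normoxia in wild-type cells. Its changes of 0.10 and 0.13 were within the SD between probe sets.

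**Figure D4:**
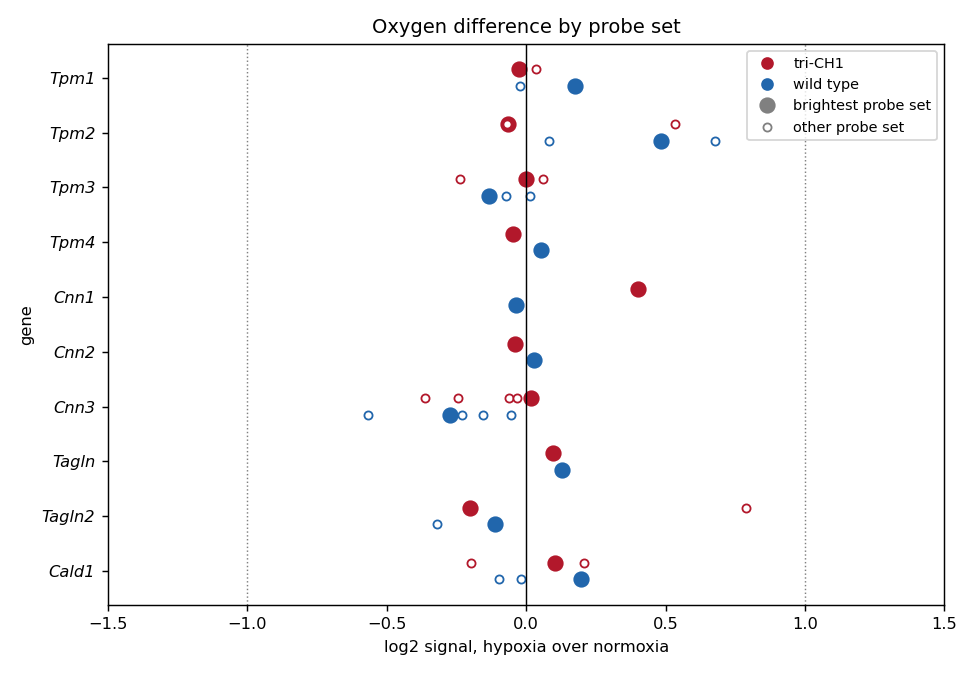
Log2 signal of hypoxia over normoxia (x axis) for the 22 bright member probe sets, by gene (y axis), in tri-CH1 (red) and wild-type cells (blue), with the brightest probe set of each gene as a large filled point and dotted lines at 2-fold. All points lie inside the dotted lines, the farthest being Tagln2 at 0.79 in tri-CH1 cells and Tpm2 at 0.68 in wild-type cells.

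The difference between the hypoxia changes, tri-CH1 minus wild type, had a median of -0.078 over the members and 0.028 over 4645 genes. None of the 10 reached 1 in size, as 3.23% of all genes did. The largest was that of Tpm2, at -0.55, followed by Cnn1 at 0.44, and the second probe set of Tagln2 gave 1.11, which the brightest one did not share, at -0.09. These differences use all 4 arrays, the array of the other lot included.

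The members were set beside other genes of the actin cytoskeleton. Of 42 listed actin-binding and contractile partners, 33 counted. In normoxia 3 were lower in tri-CH1 cells and 1 higher, with a median log2 difference of -0.31, and in hypoxia 4 were lower and 0 higher, with a median of -0.18. Over all genes 3.48% were lower and 3.16% higher in normoxia, and 3.31% and 3.76% in hypoxia. In 16 of the 33 both tri-CH1 arrays lay below both wild-type arrays, and in 2 above, against 21.0% and 26.8% of all bright genes. Lasp1, an actin-binding adaptor, had 1918 in tri-CH1 cells and 5777 in wild-type cells in normoxia, and 1838 in tri-CH1 cells and 4896 in wild-type cells in hypoxia, so it was 3.01-fold and 2.66-fold lower. Log2 differences on its other probe sets at 500 or more ranged from -1.97 to 0.63 in normoxia and from -1.35 to -0.21 in hypoxia. The LIM protein Fhl2, an SRF cofactor of muscle, was 2.14-fold lower in normoxia and 2.85-fold lower in hypoxia. Csrp1, a LIM protein of smooth muscle, had log2 differences of -0.91 in normoxia and -1.20 in hypoxia. The actin-monomer binder Tmsb4x had -0.79 and -1.07, and the scaffold Pdlim7 had -1.16 and -0.34, while its other probe set gave -0.34 and 0.30. Ezrin (Ezr), a linker of actin to the membrane, was 2.24-fold higher in tri-CH1 cells in normoxia and had a log2 difference of 0.28 in hypoxia. It also was the only partner past 2-fold with oxygen, 3.17-fold higher in hypoxia in wild-type cells, with a log2 change of 0.78 in tri-CH1 cells, but its other probe set gave changes of -0.25 in tri-CH1 cells and -0.04 in wild-type cells.

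Of the 6 actin genes, 5 counted. The smooth muscle gamma-actin Actg2 had 889.9 in tri-CH1 cells and 5039 in wild-type cells in normoxia, and 973.2 in tri-CH1 cells and 3998 in wild-type cells in hypoxia, 5.66-fold and 4.11-fold lower. The skeletal alpha-actin Acta1 had 697.5 in tri-CH1 cells and 3494 in wild-type cells in normoxia, and 376.4 in tri-CH1 cells and 3151 in wild-type cells in hypoxia, 5.01-fold and 8.37-fold lower. The smooth muscle alpha-actin Acta2 had log2 differences of -0.45 and -0.55, close to those of Tagln. For the cytoplasmic actins Actb and Actg1 both tri-CH1 arrays lay above both wild-type arrays, with differences of 0.38 and 0.28 in normoxia and 0.12 and 0.08 in hypoxia. The cardiac actin Actc1 was under 500 on every array and did not count, with 297.0 in tri-CH1 cells and 260.5 in wild-type cells in normoxia and 248.7 in tri-CH1 cells and 207.0 in wild-type cells in hypoxia. SRF itself had 459.6 in tri-CH1 cells and 808.6 in wild-type cells in normoxia, and 402.3 in tri-CH1 cells and 873.2 in wild-type cells in hypoxia. It was 2.17-fold lower in tri-CH1 cells in hypoxia, with a log2 difference of -0.82 in normoxia, but its other probe set, under 500 on every array, gave 0.10 and 0.21. Of the actin-sensing cofactors, Mrtfa had 317.3 in tri-CH1 cells and 486.4 in wild-type cells in normoxia. In hypoxia it had 577.0 in tri-CH1 cells and 419.3 in wild-type cells, so the genotypes overlapped. Mrtfb, under 500 on every array, had 285.9 in tri-CH1 cells and 242.0 in wild-type cells in normoxia. In hypoxia Mrtfb had 236.9 in tri-CH1 cells and 103.1 in wild-type cells. Myocd, the SRF cofactor of cardiac and smooth muscle, stayed under 200 on every array. The 7 housekeeping genes that counted had medians of 0.049 in normoxia and 0.077 in hypoxia, and none passed 2-fold.

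**Figure D5:**
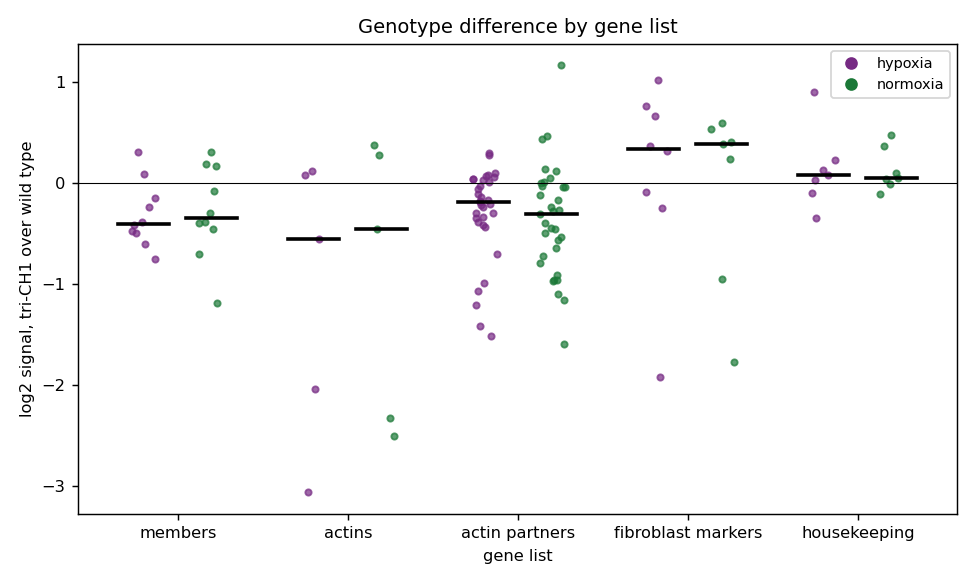
Log2 signal of tri-CH1 over wild type (y axis) for the members and for 4 other gene lists (x axis), in hypoxia (purple) and normoxia (green), with 1 point per gene that counted in that comparison and a black bar at the median. The medians of the members, actins and actin partners lie below 0 at both oxygen levels and those of the fibroblast markers and housekeeping genes above 0.

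Some markers of muscle differed by genotype in the same direction as most members. The smooth muscle list without the members, 6 genes, had a summed signal of 26731 in tri-CH1 cells and 40044 in wild-type cells in normoxia, and of 25392 in tri-CH1 cells and 39470 in wild-type cells in hypoxia. Most of that is Acta2, while Myh11, the smooth muscle myosin, ran from 98.0 to 202.8 over the 4 arrays, close to the floor. Lmod1, under 500 on every array, was dimmer in tri-CH1 cells at either oxygen level. It had 300.2 in tri-CH1 cells and 434.0 in wild-type cells in normoxia, and 277.7 and 425.1 in hypoxia. Des, the muscle intermediate filament gene, had 367.2 in tri-CH1 cells and 285.5 in wild-type cells in normoxia and 392.8 in tri-CH1 cells and 354.8 in wild-type cells in hypoxia, and for smoothelin (Smtn) the genotypes overlapped. The skeletal muscle list of 8 genes summed to 1586 in tri-CH1 cells and 4241 in wild-type cells in normoxia, and to 1362 in tri-CH1 cells and 4097 in wild-type cells in hypoxia, and that lower sum lay in Acta1. The other 7 genes summed to 888.3 in tri-CH1 cells and 747.3 in wild-type cells in normoxia and to 985.8 in tri-CH1 cells and 946.1 in wild-type cells in hypoxia. Among the fibroblast markers 5 of 8 lay above both wild-type arrays on both tri-CH1 arrays, against 26.8% of all bright genes. Col1a1 was 2.02-fold higher in tri-CH1 cells in hypoxia, a log2 difference of 1.02, while its other probe set gave 0.65. The surface protein Thy1 was 3.43-fold lower in tri-CH1 cells in normoxia and 3.78-fold lower in hypoxia. The summed fibroblast list was 132246 in tri-CH1 cells and 111907 in wild-type cells in normoxia, and 117502 in tri-CH1 cells and 108098 in wild-type cells in hypoxia. Their part in the values of the members was not tested.

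Cnn1 had the widest range of the members over the 4 arrays, 1.19 on the log2 scale. The genes whose pattern came nearest to it, by the root mean square difference of log2 signals centred over the 4 arrays, were Col7a1 at 0.061, the TGF-beta receptor Tgfbr1 at 0.063, the protease Ctsk at 0.064, Cdc42se1 at 0.078 and Ppp1r18 at 0.086, of 4635 genes. Tgfbr1 had 436.1 in tri-CH1 cells and 908.1 in wild-type cells in normoxia, and 579.3 in tri-CH1 cells and 902.8 in wild-type cells in hypoxia. With 4 arrays such likeness is only a description.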

How the data were processed

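Total RNA of the 4 groups was labelled with biotin and hybridised to 1 array each. Per the labels, the authors used the Affymetrix statistical algorithm to make 1 signal intensity per probe set, and scaled each array to a target of 500. The deposited values are linear. The software is not given in the sources used here. Of 22690 probe sets, 64 were controls, 20380 had 1 gene symbol in the platform annotation, 691 had several and 1555 had none; only those with 1 symbol were named. Each gene took its brightest probe set by mean signal. From these, log2 ratios with a floor of 200 were computed. The gene numbers of all 10 members matched the RefSeq gene table. Members, gene lists and limits were chosen with earlier results of these data known. The text names all members, list genes past 2-fold (at most 4 per list and comparison) and, added after their values were seen, others of those lists. It also names 3 oxygen-response genes and the 5 genes most like the member of widest range. The ratio rule was tested on simulated data. Alternatives were floors of 100, 400 or none, minimum signals of 250 and 1000, quantile, cyclic loess and median scaling, other choices of probe set, and a 1.5-fold threshold. Tools were Python 3.11.15, numpy 2.4.6, pandas 2.3.3, matplotlib 3.10.9, R 4.3.3 and limma 3.58.1 (normalization only).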

Additional observations from a re-analysis of the deposited data

Results flagged for a closer look

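The hypoxia changes of 6 members had opposite signs in the genotypes, each from 1 array per group, so the difference was not tested. Of all 4645 genes at 500 or more on any array, 33.4% had opposite signs. The difference, tri-CH1 minus wild type on the log2 scale, was -0.20 for Tpm1, -0.55 for Tpm2, -0.10 for Tpm4, 0.44 for Cnn1, -0.067 for Cnn2 and 0.29 for Cnn3. None reached 1 in size, and each of the 6 had the same sign in both genotypes under at least 1 of the other settings. The Tpm1 difference turned to 0.031 with the mean over all probe sets and to 0.057 with plain _at probe sets. The change of Cnn3 in tri-CH1 cells was negative in 4 settings, from -0.14 to -0.02, and its other bright probe sets were negative in both genotypes. For Tpm2 the other bright probe sets gave the same sign in the difference, at -0.15 and -0.14.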

How the results depend on the processing

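No paired analysis was possible because each group has 1 array. The member value past 2-fold, Cnn1 in normoxia, kept its sign and ran from -1.43 to -1.11. Of the 12 other settings only quantile, cyclic loess and median scaling could move it. Cnn1 has 1 plain _at probe set, and its signals lie above every floor and minimum used. A threshold of 1.5-fold gave 2 lower members in normoxia (Cnn1 and Cnn3) and 2 in hypoxia (Cnn1 and Tpm1), against 9.51% and 8.88% of all genes. Members with both tri-CH1 arrays below both wild-type arrays numbered 6 to 8 under the alternatives. Median scaling gave 8, with 36.2% of all genes, and plain _at probe sets gave 6 of 7, with 21.2%. Under the other alternatives the share of all genes ran from 17.4% to 25.2%. Members above were 0 with median scaling, against 13.3% of all genes. They were 1 with the mean over all probe sets, against 25.6%, and 1 with plain _at probe sets, against 26.7%. The mean over probe sets at 500 (chosen after seeing the data) also gave 1, against 26.4%. Separation by oxygen, 0 members in either direction, became 1 below with quantile normalization (Cnn2), against 21.5% of all genes. With median scaling it became 1 above (Tpm2), against 13.8%. Either mean over probe sets gave 1 below (Tpm3), against 23.2%, and 1 above (Tpm2), against 15.4% with all probe sets and 15.3% with those at 500. The cause was not tested. The settings were run on these order counts after seeing the data. In tri-CH1 cells, median scaling put the genes higher and lower in hypoxia at 153 and 24, in place of 139 and 43. Floors of 100, 400 or none and other minimum signals changed no value of a member. Of 585 member values under other settings, 45 changed sign, all with another normalization or choice of probe set. The 585 include the values under other floors, minimum signals and the 1.5-fold threshold, which could not change sign. Between genotypes 6 values changed sign: Cnn2 (quantile), Tpm3 and Tpm4 (median scaling) and Tpm2, at -0.044 and -0.056 in normoxia with the means over probe sets. Signals near 200 limit what the dimmest probe sets can show.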
